A study of Mus musculus with 9 samples.

Results

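The cells described here are Mrc1-high non-cycling macrophages found among mouse embryonic fibroblasts (MEFs) that were being reprogrammed to induced neurons. They were chosen by transcript levels in single cells. A barcode with at least 3000 UMI (unique molecular identifiers, here counted transcripts) and at most 20% mitochondrial UMI counted as a cell. A cell counted as a macrophage when Csf1r, Tyrobp, Fcer1g, Ctss, Laptm5 and C1qb together reached 30 UMI per 10,000 and the collagen genes Col1a1, Col1a2 and Col3a1 stayed under 60 per 10,000. It counted as non-cycling with fewer than 3 UMI of Mki67 and Top2a, and as Mrc1-high with at least 2 UMI of Mrc1 per 10,000. The rule found 5411 cells, which were 6.60% of the 81999 cells that passed the filters among 95603 barcodes. They made up 93.7% of the 5772 non-cycling macrophages, beside 361 Mrc1-low cells, and a further 1486 macrophages were cycling.

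The series held 9 single-cell libraries, 1 for each of the genotypes WT, Per1-/- and Per2-/- on days 4, 7 and 10. All cells, WT included, had been transduced with the BAM transcription factor genes, and the labels name the cell type of every library as induced neurons although the macrophages came with the fibroblast cultures. Each genotype and day was 1 library, so effects of genotype were repeated only over days, and effects of day only over genotypes. The p-values measure the spread between these libraries, and nothing in the labels says that the 9 came from separate cultures.

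Mrc1 encodes the mannose receptor CD206, a C-type lectin that takes up mannosylated glycoproteins and pathogens by clathrin-dependent endocytosis. It is known from tissue-resident macrophages, many of which are seeded in the embryo, and from macrophages treated with interleukin 4. Csf1r is the receptor that such macrophages need for survival, C1qb encodes a chain of complement C1q, Selenop a secreted selenium carrier, Fcrls an Fc receptor-like scavenger molecule and Ms4a7 a membrane protein of macrophages. PER1 and PER2 are repressors of the circadian clock and lower the activity of CLOCK and BMAL1.

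The libraries differed in how many members they gave. There were 84, 215 and 128 members on day 4 in the WT, Per1-/- and Per2-/- libraries, 359, 1097 and 1047 on day 7, and 314, 1197 and 970 on day 10. They were 0.967% of all cells in the WT library of day 4 and 17.1% in the Per1-/- library of day 7. The summed counts of the members ranged from 2125562 to 26802343 UMI per library, and the median member held 21177 UMI. Of the barcodes, 824 passed the filters in more than 1 library and 122 members carried one, while 5 barcodes were members in 2 libraries. Xist, expressed from the inactive X chromosome of female cells, was at 0.0830 and 0.0746 CPM (counts scaled to the same total in every library) in the members of the Per1-/- libraries of days 7 and 10 and between 445 and 912 CPM in the other 7. The Y-linked gene Ddx3y was at 91.0 and 94.7 CPM in those 2 libraries and between 19.0 and 38.3 CPM in the rest. The sex of the cells therefore cannot be told apart from genotype in them. The Per1-/- library of day 4 was among the other 7. Within Per1-/-, sex and the source of the cells therefore cannot be told apart from day either.

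Per1 and Per2 themselves were measured first. Per1 was at 6.12, 5.64 and 7.62 CPM in the WT members of days 4, 7 and 10 and at 7.33, 7.47 and 6.98 CPM in the Per1-/- members. Per2 was at 2.82, 1.496 and 1.30 CPM in WT and at 2.60, 3.65 and 3.05 CPM in Per2-/- members. Each gene was lower in its own mutant than in WT on 1 of the 3 days and higher on the others. The counts came from the 3' end of transcripts and the labels do not say which part of each gene was deleted, so these values do not check the genotypes.

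The share of non-cycling macrophages that were Mrc1-high was lowest on day 4. It was 77.8% (exact Clopper-Pearson 95% interval 68.8 to 85.2), 86.7% (81.8 to 90.7) and 86.5% (79.9 to 91.5) in the WT, Per1-/- and Per2-/- libraries of day 4. On day 7 it was 90.7% (87.4 to 93.3), 94.2% (92.7 to 95.4) and 95.4% (93.9 to 96.5), and on day 10 89.97% (86.3 to 92.9), 98.4% (97.5 to 99.0) and 93.0% (91.3 to 94.5). These intervals cover counting error only. WT had the lowest share on each day, except that on day 10 Per2-/- was lower with a higher minimum of UMI per cell (94.3% against 94.95% in WT) and with collagens under 20 per 10,000 (93.8% against 95.2%). The highest single share was that of Per1-/- on day 10. The share had a slope of 1.69 percentage points per day over the 9 libraries (two-sided exact permutation test over all orders of days within genotypes, p = 0.0370). Days 4 and 10 set this slope, which stayed the same without any 1 library of day 7. It was not a steady rise, as the share fell from day 7 to day 10 in WT and Per2-/- and rose in Per1-/-. The share is itself defined by the Mrc1 threshold of the rule. Without any 1 library the slope lay between 0.934 (without WT day 4) and 2.44 points per day (without WT day 10), with exact permutation p from 0.0556 to 0.222. With Mrc1 of at least 4 per 10,000 as the threshold it was 1.41 points per day (exact permutation p = 0.167). The Per1-/- share exceeded the mean of the other genotypes by 4.20 points (two-sided exact permutation test over 27 assignments, p = 0.222), where 0.0370 is the smallest p this design allows. This difference was 9.25 points with Mrc1 of at least 4 per 10,000 and 2.74 points without WT day 4.

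**Figure D1:**
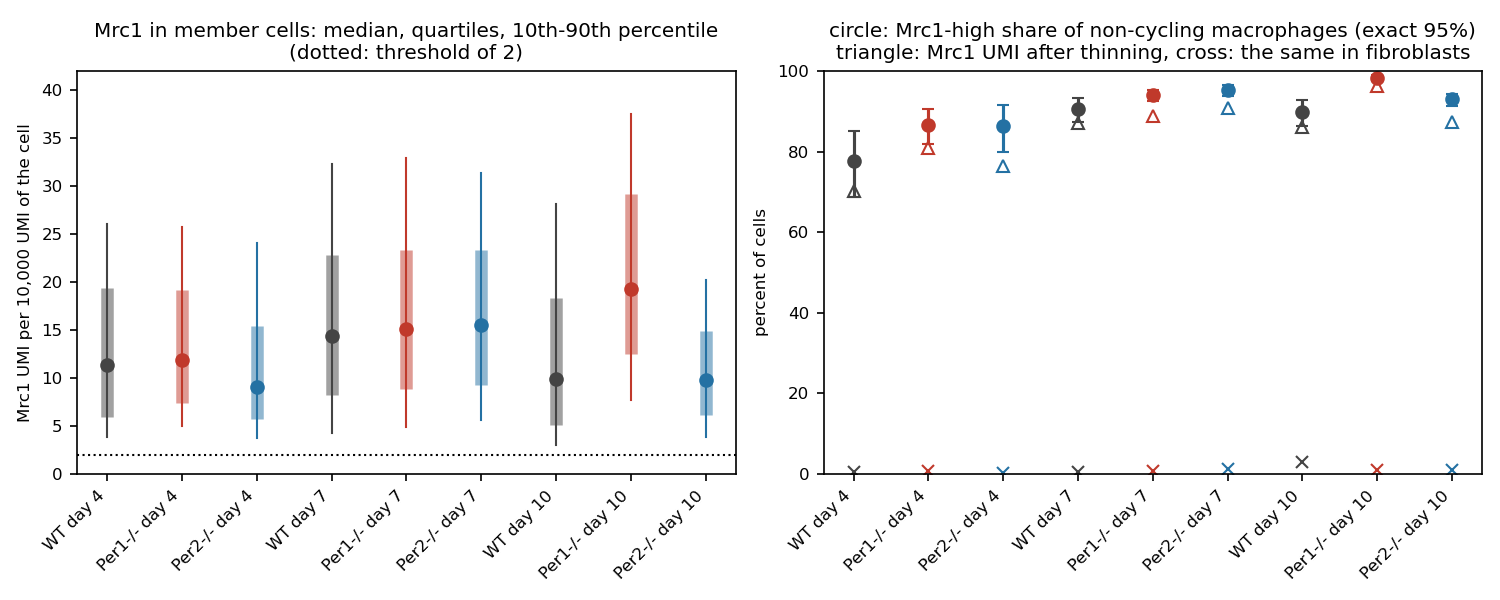
Left, Mrc1 UMI per 10,000 UMI in the member cells of each library, with the median as a point, the quartiles as a thick bar and the 10th to 90th percentiles as a line. Right, percent of non-cycling macrophages that were Mrc1-high (circles, exact 95% interval) or had an Mrc1 UMI after thinning to 3000 UMI (triangles), and percent of fibroblasts with an Mrc1 UMI after thinning (crosses); medians ran from 9.06 to 19.3 and circles from 77.8% to 98.4%.

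Mrc1 was far from its threshold in most members. The median member held 11.3, 11.8 and 9.06 Mrc1 UMI per 10,000 on day 4 in the WT, Per1-/- and Per2-/- libraries, 14.3, 15.1 and 15.5 on day 7, and 9.91, 19.3 and 9.74 on day 10. The Per1-/- library of day 10 stood highest, while WT and Per2-/- on day 10 were near the levels of day 4. Of the non-cycling macrophages, 117 lay just below the threshold at 1 to 2 per 10,000 and 163 just above it at 2 to 3, and 176 had no Mrc1 UMI. Depth differed between the classes: the Mrc1-low cells held a median of 14626 UMI, and those of WT day 10 only 4525 UMI with 36.1 collagen UMI per 10,000. After thinning every cell to 3000 UMI, at least 1 Mrc1 UMI was found in 70.4% (WT day 4) to 96.4% (Per1-/- day 10) of non-cycling macrophages and in 0.888% of 51673 fibroblasts (5.27% unthinned, median 22782 UMI). Among cycling macrophages 93.3% also reached the Mrc1 threshold.

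The label has 6 markers, of which Mrc1, Csf1r and C1qb were used by the rule, so the levels of those genes do not check it. Mrc1 (chromosome 2, 14229392 to 14332057, GRCm38) summed to 1119 to 2185 CPM in the 9 libraries. Selenop lay between 2428 and 6815 CPM, Fcrls between 305 and 860, Csf1r between 468 and 860, C1qb between 2418 and 3382 and Ms4a7 between 1841 and 3185. Each was also higher in the Mrc1-high than in the Mrc1-low sum of every library, which the rule fixed for Mrc1 and which checks nothing for the others, since the classes were cut from the same cells. Selenop overlaps the antisense-strand gene Ccdc152, and reads of the pair may be split by the counting.

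Genes that mark Mrc1-high macrophages of adult tissues differed in level, and some were near 0. Lyve1, the hyaluronan receptor of perivascular and interstitial macrophages, reached at most 2.35 CPM, and Cd163, the haemoglobin scavenger receptor, was at 0 in 8 libraries and at 0.112 CPM in the other. Timd4, a phosphatidylserine receptor of long-lived resident macrophages, lay between 1.08 and 11.8 CPM and Folr2, a folate receptor, between 4.70 and 28.2 CPM. Others were high: the transcription factor gene Maf at 1163 to 2075 CPM, Gas6, a bridging molecule for apoptotic cells, at 321 to 826 CPM, Stab1, a scavenger receptor, at 144 to 553 CPM, and Igf1, a growth factor gene, at 541 to 701 CPM. Of 24 genes on a list for resident and embryonic macrophages, 12 had a mean of at least 20 CPM and 7 a mean under 2 CPM.

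The genes of the interleukin 4 response were mostly near 0 although Il4ra, a chain of its receptor, was at 57.1 to 114 CPM. Arg1, arginase, reached at most 0.470 CPM, and 12 of the 20 genes on the list of alternative activation had a mean under 2 CPM. Of the inflammatory genes, Ccl3, a macrophage chemokine, was at 94.6 to 184 CPM and Tnf at 9.51 to 44.5 CPM, whereas Il1b reached at most 1.496 CPM. MHC class II was also near absent, with H2-Aa at most 2.27 and Cd74, its invariant chain, at most 5.01 CPM, while the class I gene H2-K1 lay between 405 and 857 CPM. The 10 neutrophil markers together summed to 0.345 to 1.67 CPM, the 8 erythroid ones to at most 0.470 and the 9 mast cell ones to 0.460 to 1.60. Other lists were not near 0. Microglial markers summed to 231.5 to 623.2 CPM in members, and to at least 3076 CPM in fibroblasts. Osteoclast markers summed to 78.6 to 181.3, lymphoid to 13.3 to 72.7, dendritic to 10.2 to 59.1 and monocyte markers to 21.1 to 42.95 CPM. The 17 fibroblast markers summed to 640 to 1465 CPM in members and to at least 22480 CPM in fibroblasts. Members and fibroblasts were separated by their collagen and macrophage genes, so the selection favoured this difference and it does not check the label. The neuronal markers, 15 in number, summed to 71.8 to 296.8 CPM, lowest in the Per1-/- libraries of days 7 and 10 and highest in Per2-/- day 10.

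**Figure D2:**
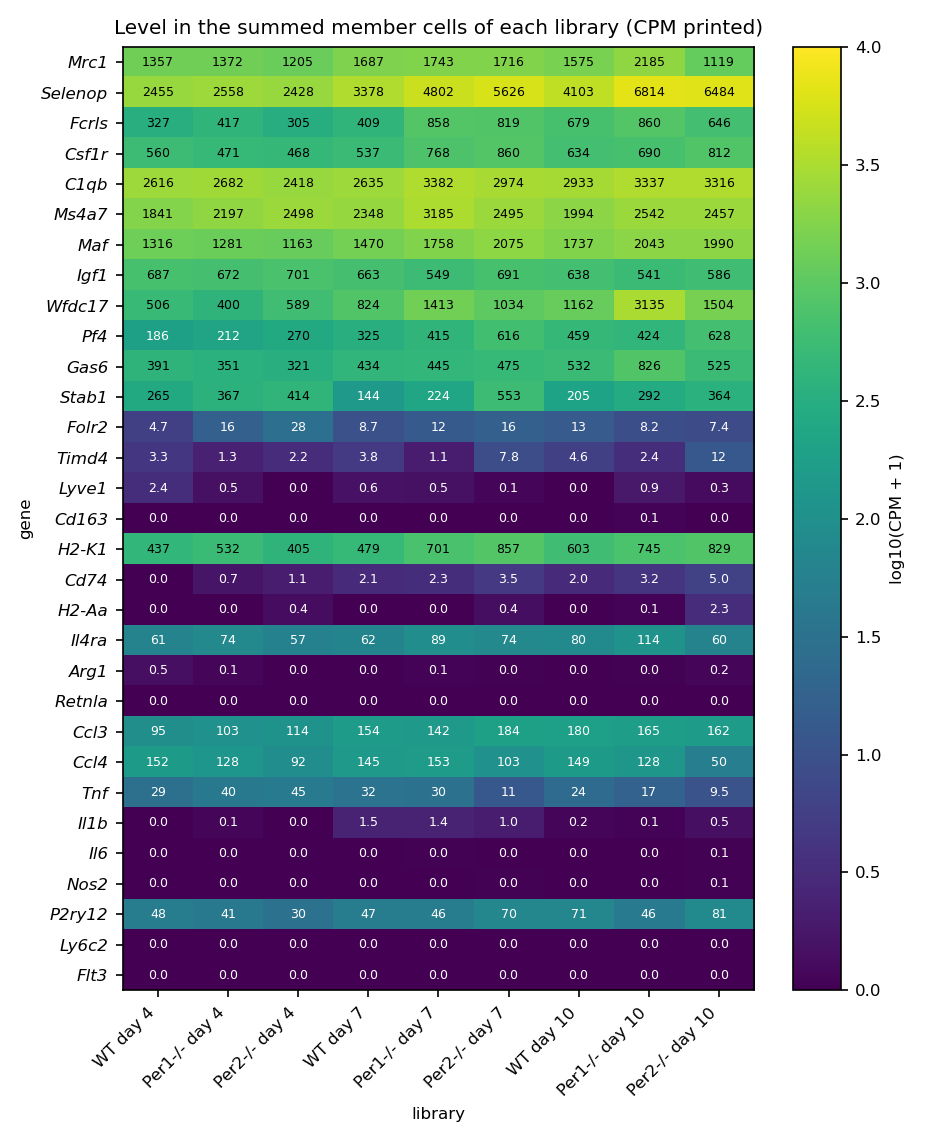
Level of 31 genes (rows) in the summed members of the 9 libraries (columns), with the CPM printed in each cell and the colour giving log10(CPM + 1). The 6 markers stand above 300 CPM in all 9 libraries, while Cd163, Retnla, Il6, Nos2, Ly6c2 and Flt3 stay at or near 0.

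Mrc1-high and Mrc1-low cells were cut from the same macrophages, so their contrast is given as a description without a test. Beside Mrc1 itself (median log2 ratio 4.47 over the 9 libraries), the largest ratios were those of Nxpe5 (2.67), the monocyte-attracting chemokine genes Ccl12 (2.59) and Ccl7 (2.33), Stab1 (2.27), Gas6 (1.90) and Fcgr2b (1.80), the inhibitory Fc receptor. Each of these was above 0 in 9 of 9 libraries. Ccl12 for example was at 50.3, 63.3 and 25.2 CPM in the Mrc1-high and at 7.19, 5.28 and 3.13 CPM in the Mrc1-low sums of day 4. Among genes below 0 in 9 of 9 libraries the lowest ratio was that of Ass1, an enzyme of arginine synthesis (-2.74), followed by Klf4 (-1.97), a transcription factor of monocytes and fibroblasts. Ass1 was at 4.23 and 113 CPM in the Mrc1-high and Mrc1-low sums of WT day 4.

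By list, 27 of 28 interferon-response genes with at least 20 CPM had a median ratio above 0 (median 0.60), as had 11 of 12 resident genes (median 0.85) and 17 of 19 endocytic and scavenger genes (median 0.77). Over all 6370 genes at that level 3293 were above 0 and the median was 0.0091. Of 5 genes of alternative activation 2 were above 0 and 3 below 0 in 9 of 9 libraries (median -1.10), among the latter Il1rn (-1.28) and the fibronectin gene Fn1 (-1.10). Fibroblast markers also went the other way, with 0 of 12 above 0 (median -1.09), as did the 5 osteoclast genes (median -2.10). Of those 5, 0 were below 0 in 9 of 9 libraries. Genes were counted here when their mean reached 20 CPM in either class. In the Mrc1-high sums only 9 fibroblast, 2 osteoclast and 4 alternative activation genes reached it. The others entered through the Mrc1-low class, so their low ratios were favoured by that choice. In the same way, genes that reached it only in the Mrc1-high class favoured high ratios. All 28 interferon, all 12 resident and 18 of the 19 endocytic genes reached it in the Mrc1-high sums. How many of them reached it only there was not counted. Acp5, the acid phosphatase of osteoclasts, was at most 2.23 CPM in the Mrc1-high sums. It reached 288 CPM in the Mrc1-low sum of Per1-/- day 10, which held 20 cells. Cells with the highest doublet scores, marked at a fixed expected rate, were 5.38% of Mrc1-high and 15.2% of Mrc1-low cells, against 8.74% of all cells, and their part in these ratios was not tested.

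Against cycling macrophages the largest ratios were smaller, with Slfn5, an interferon-induced gene, at 1.45, Gpr155 at 1.34, Kynu, kynureninase, at 1.25 and Ms4a4a at 1.23. The lowest were genes of mitosis and replication, such as the histone gene Hist1h3b (-8.21). The rule cut these classes by a raw count of Mki67 and Top2a, so low mitosis genes check nothing. Cycling cells were also deeper in every library, with medians of 27657.5 to 42201 UMI against 15536 to 33141 in members. The part of depth and of proliferation transcripts in the other ratios was not tested. Among the macrophage lists, 31 of 35 lysosomal and lipid genes were above 0 with a median of 0.26, beside 2799 of 6557 over all genes with a median of -0.045. Other macrophage lists were similar, with 10 of 10 iron and haem (0.32), 18 of 19 identity (0.26) and 11 of 12 resident genes (0.48) above 0. Inflammatory genes were less so, with 11 of 17 above 0 (0.080). Genes were again counted when their mean reached 20 CPM in either class, with the same limit.

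**Figure D3:**
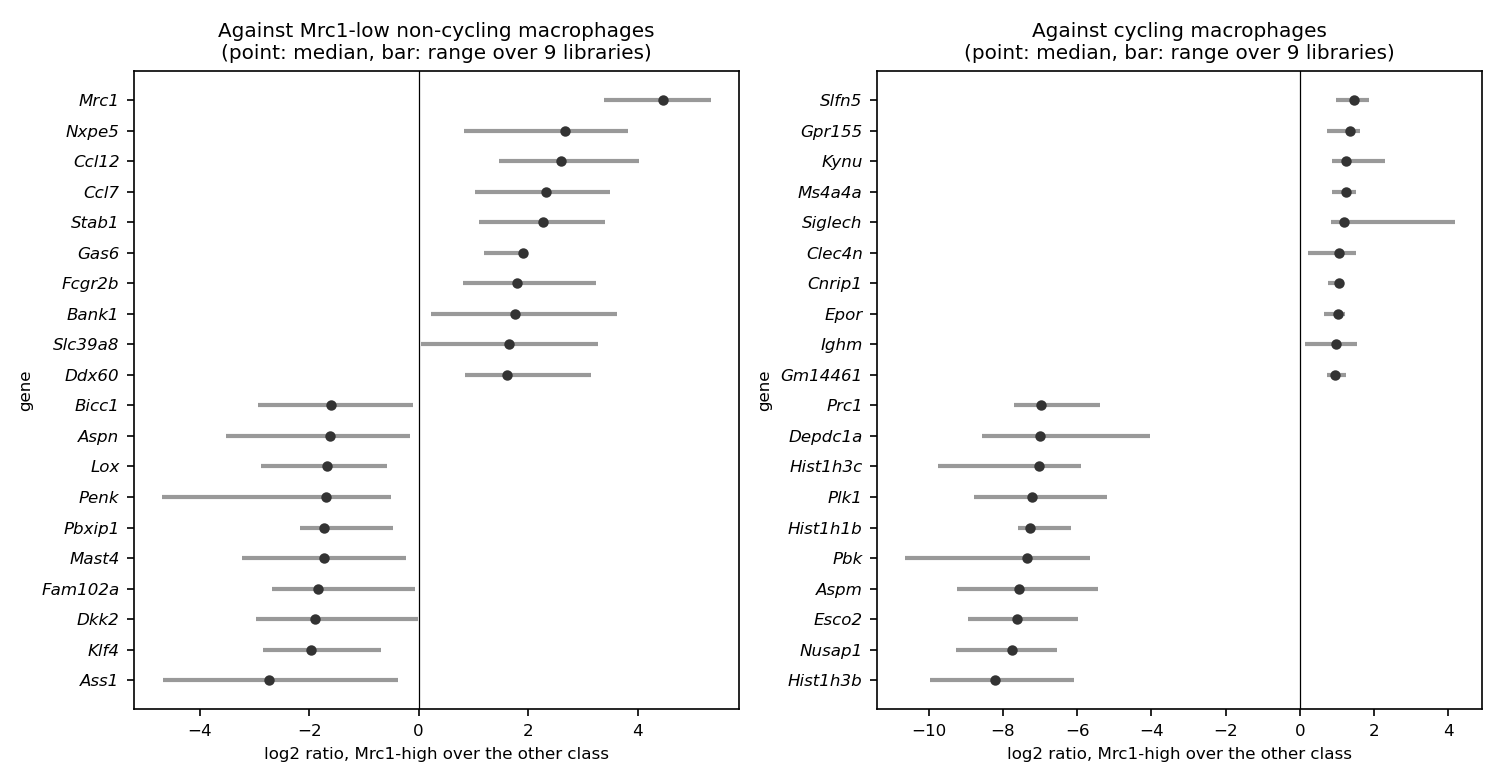
Log2 ratio of the summed level in Mrc1-high cells over Mrc1-low (left) and cycling (right) macrophages for the 10 genes with the highest and the 10 with the lowest medians of those named. Points are medians and bars the range over 9 libraries. Mrc1 leads the left panel at 4.47 and Hist1h3b ends the right one at -8.21. The rule cut the classes by Mrc1 on the left and by Mki67 and Top2a on the right.

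Among all non-cycling macrophages, Mrc1-low cells included, genes were ranked by how like their level per cell was to that of Mrc1. The likeness is the median over 9 libraries of the Spearman correlation across cells of the level per 10,000 UMI, given as a description since cells of 1 library share depth and source. Snx2, a sorting nexin of endosomes, came first (0.644), then Dab2, a clathrin adaptor (0.625), Maf (0.532), the clathrin heavy and light chain genes Cltc (0.505) and Clta (0.502), Snx3 (0.451) and Itsn1 (0.424), a scaffold of clathrin-coated pits. Selenop stood at rank 11 (0.406) and Csf1r at rank 35 (0.343). C1qb stood at rank 2403 (0.064) although it is a marker of the same cells. Snx2 was at 376 to 603 CPM and Dab2 at 933 to 1572 CPM in the 9 libraries.

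Days 4 and 7 differed in many genes of the members. With edgeR's quasi-likelihood test on the summed counts, genotype and day as terms, and Benjamini-Hochberg adjustment, 385 of 12628 genes passed an adjusted p of 0.05, or 3.05%, of which 231 were higher on day 7 (1.83%) and 154 lower (1.22%). The median log2 fold change over all tested genes was 0.0036. In Per1-/- the libraries of days 4 and 7 also differed in Xist and Ddx3y, as given above. The 3 libraries of day 4 carried the fewest members, and the count of calls rested on few libraries. It was 8 without Per1-/- day 4, 17 without Per2-/- day 4, 204 without WT day 4, 8 without Per1-/- day 7, 12 without Per2-/- day 7, 108 without WT day 10, 221 without Per1-/- day 10 and 73 without day 10 altogether. Fcgr2b, Gbp7, Trf and Pltp kept their calls in all 17 alternatives run. Other calls held less often: Clec10a lost its call in 14 of the 17, Cd74 in 13, Gbp2 in 12, Sox10 in 11, and Stab2, Erbb3 and Egr1 in 10 each.

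Fc receptors and endocytic genes were among those that rose. Fcgr2b (chromosome 1, 170958617 to 170976547, minus strand) was at 23.1, 43.7 and 25.2 CPM on day 4 in the WT, Per1-/- and Per2-/- members and at 72.8, 215 and 144 CPM on day 7. The days did not overlap, and Per1-/- was the highest on both (log2 fold change 2.28, SE 0.18, adjusted p = 0.00295 by edgeR). Fcgrt, the neonatal Fc receptor that recycles antibodies, rose from 85.2 to 91.1 CPM to 132 to 265 CPM (1.26, adjusted p = 0.0223). Clec10a, a galactose-binding lectin, stood at 2.97 to 4.13 CPM on day 4 and at 6.93 to 19.5 CPM on day 7 (1.58, adjusted p = 0.0496), and Stab2, a hyaluronan scavenger receptor, rose as well (1.05, adjusted p = 0.0365). Of 23 endocytic and scavenger genes tested these 4 were higher and 0 lower, with a list median of 0.36. Over all genes tested 1.83% were higher and 1.22% lower, with a median of 0.0036. Of 19 complement and Fc genes 3 were higher, among them Fcgr3 and Fcgr2b, which is on both lists, and 0 lower. Of the 6 Schwann cell markers tested 3 also rose, among them Erbb3 and Sox10, which went from at most 0.941 CPM on day 4 to at most 3.45 CPM on day 7, and in fibroblasts of the same libraries Sox10 reached 9.56 CPM. With marked doublets left out neither passed (Erbb3 1.29, Sox10 0.44). Between the same days Fcgr2b changed by 2.99 on the log2 scale in fibroblasts, Clec10a by 2.10 and Stab2 by 1.35, at levels of at most 0.679, 0.0899 and 0.239 CPM over the 9 libraries. The part of free RNA was not tested.

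Of the 3 markers that the rule had not used, 2 rose, though Selenop lost its call in 6 and Fcrls in 7 of 17 alternatives. Selenop was at 2455, 2558 and 2428 CPM on day 4 and at 3378, 4802 and 5626 CPM on day 7 (log2 fold change 0.90, adjusted p = 0.0303), and Fcrls changed by 1.01 (adjusted p = 0.0385). Ms4a7, at 1841 to 2498 CPM on day 4 and 2348 to 3185 CPM on day 7, missed the threshold (0.35, adjusted p = 0.119). Adgre1, the gene of F4/80, rose by 0.68 from 308 to 329 CPM to 449 to 545 CPM (adjusted p = 0.0312), and lost its call in 7 of 17 alternatives. It was 1 of 2 called among 20 macrophage identity genes, the other being Fcgr3. Of 18 resident macrophage genes tested, 3 rose (Pf4, Clec10a and Cd302) and 0 fell, with a median of 0.45. Over all genes tested 1.83% were higher and 1.22% lower, with a median of 0.0036. Clec10a was also counted among the endocytic genes, and Fcgr3 among the complement and Fc genes. In fibroblasts Adgre1 changed by 1.71, Fcrls by 1.67 and Pf4 by 1.38 on the log2 scale between these days, at levels of at most 3.81 CPM. Pf4, the chemokine CXCL4, was at 186, 212 and 270 CPM on day 4 and at 325, 415 and 616 CPM on day 7 (1.05, adjusted p = 0.00892).

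Single lipid and iron genes rose or fell. Pltp, the phospholipid transfer protein, was at 123, 131 and 201 CPM on day 4 and at 248, 279 and 377 CPM on day 7 (log2 fold change 1.06, SE 0.09, adjusted p = 0.00295), whereas Spp1, osteopontin, fell by 0.80 (adjusted p = 0.0322) from 1977 to 2973 CPM to 1141 to 1575 CPM. Trf, transferrin, was at 27.3, 43.2 and 40.4 CPM on day 4 and at 65.9, 117 and 162 CPM on day 7 (1.63, SE 0.14, adjusted p = 0.00335), and changed by 2.27 in fibroblasts, where it reached at most 12.99 CPM. Cp, the ferroxidase ceruloplasmin, stood at 3.71 to 6.59 CPM and then at 9.43 to 37.2 CPM (2.52, adjusted p = 0.0296), and Spic, a transcription factor of iron-recycling macrophages, at 0.470 to 1.86 and then 3.68 to 9.21 CPM (2.43, adjusted p = 0.00833). The iron genes that fell were Slc11a1, the phagosomal metal transporter NRAMP1, and Hmox1, haem oxygenase 1. Slc11a1 was at 87.5, 92.5 and 113 CPM on day 4 and at 51.2, 34.3 and 57.0 CPM on day 7 (-1.03, adjusted p = 0.0155), and Hmox1 went from 323 to 376 CPM to 162 to 214 CPM (-0.86, adjusted p = 0.0223). Of 11 iron and haem genes on the list, which does not hold Trf, 2 rose and 2 fell, and of 36 lysosomal and lipid genes 2 rose and 1 fell (median -0.077), beside 1.83% higher and 1.22% lower over all genes tested.

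**Figure D4:**
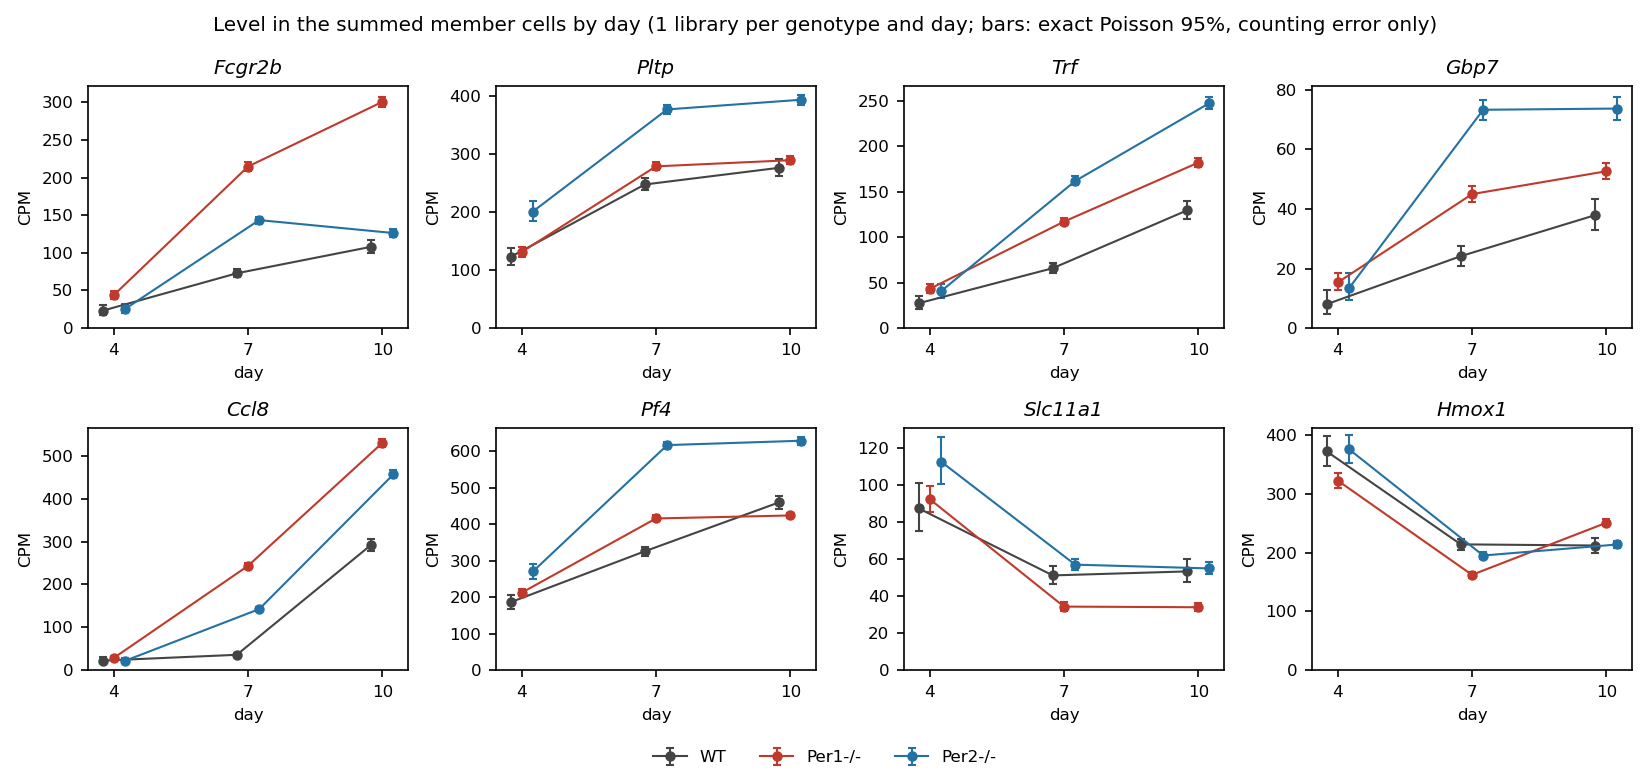
CPM of 8 genes in the summed members against day, 1 line per genotype, with exact Poisson 95% intervals that cover counting error only. Fcgr2b, Pltp, Trf, Gbp7 and Pf4 were higher on day 7 than on day 4 in all 3 genotypes, Slc11a1 and Hmox1 lower, and Ccl8 climbed again to day 10.

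Some chemokine genes rose to day 7. Ccl8, a monocyte chemoattractant (chromosome 11, 82115185 to 82116799), was at 22.1, 28.2 and 21.5 CPM on day 4 and at 35.7, 243 and 142 CPM on day 7 (log2 fold change 2.46, SE 0.40, adjusted p = 0.0291). The WT library of day 7 was close to those of day 4 and the mutants far above. Cxcl10, the interferon-induced ligand of CXCR3, went from 0.371 to 1.47 CPM to 6.10 to 21.0 CPM (3.94, adjusted p = 0.00387), and Ccl5, at most 0.371 CPM on day 4, reached 1.496 to 4.16 CPM. Ccl3 rose by 0.67 (adjusted p = 0.0277) and Nfkbiz, a nuclear regulator of NF-kappaB targets, by 1.16 (adjusted p = 0.0307). These were the 5 of 34 inflammatory genes that rose, and 0 fell (median 0.49). Over all genes tested 1.83% were higher and 1.22% lower, with a median of 0.0036. Tnf was at 28.7, 40.4 and 44.5 CPM on day 4 and at 32.2, 29.98 and 11.5 CPM on day 7, and did not pass (-0.72, adjusted p = 0.235).

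Of 37 interferon-response genes tested, 3 rose, 0 fell and 37 had a positive fold change, with a median of 0.66 beside 0.0036 over all genes. The genotypes differed in this: the summed level of the list went from 2846 to 2444 CPM in WT, from 2981 to 3022 CPM in Per1-/- and from 1307 to 5748 CPM in Per2-/-. The 3 were guanylate-binding protein genes, whose products act against intracellular pathogens. Gbp7 was at 7.998, 15.3 and 13.4 CPM on day 4 and at 24.2, 45.005 and 73.3 CPM on day 7 (1.90, SE 0.19, adjusted p = 0.00702), Gbp2 reached 10.4 CPM (2.22, adjusted p = 0.0401) and Gbp3 10.8 CPM (1.35, adjusted p = 0.0322).

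The interferon-stimulated response element (ISRE) is a promoter element that interferon-activated factors bind, and its core was searched on both strands as the letters TTTC, any 2 bases and TTTC in the 250 bases before each RefSeq transcription start (build GRCm38.p6). Such a match was found in 2.98% of all 32851 promoters, in 2.80% of 12588 promoters of tested genes, in 7.38% of 244 promoters of genes that were higher on day 7 and in 3.80% of 158 promoters of those that were lower. Another 4 motifs were searched in the same windows, and their shares in promoters of genes that were higher on day 7 and of tested genes were 4.10% and 2.50% for the PU.1 box, 7.38% and 8.18% for the canonical E-box CACGTG, 7.38% and 4.31% for the AP-1 site TGANTCA and 19.3% and 12.96% for TGCTGA, the core letters of MAF response elements. Of the 8 interferon and inflammatory genes that rose, 6 were in the promoter table and 4 held the core. Their windows are shown because these genes rose together, in transcription direction with the core in capitals, and a match is a description of letters and not of binding.
Gbp7 upstream window, chr3:142530086-142530335, plus strand: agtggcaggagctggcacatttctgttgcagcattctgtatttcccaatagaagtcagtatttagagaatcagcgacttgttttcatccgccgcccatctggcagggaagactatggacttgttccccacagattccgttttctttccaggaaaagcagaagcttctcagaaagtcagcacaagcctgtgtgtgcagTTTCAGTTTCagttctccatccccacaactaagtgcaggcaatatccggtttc
Gbp3 upstream window, chr3:142559794-142560043, plus strand: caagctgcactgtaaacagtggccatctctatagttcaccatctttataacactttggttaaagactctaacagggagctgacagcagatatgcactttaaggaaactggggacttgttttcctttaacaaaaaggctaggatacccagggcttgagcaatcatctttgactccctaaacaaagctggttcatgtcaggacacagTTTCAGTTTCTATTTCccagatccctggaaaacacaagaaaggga
Gbp2 upstream window, chr3:142620413-142620662, plus strand: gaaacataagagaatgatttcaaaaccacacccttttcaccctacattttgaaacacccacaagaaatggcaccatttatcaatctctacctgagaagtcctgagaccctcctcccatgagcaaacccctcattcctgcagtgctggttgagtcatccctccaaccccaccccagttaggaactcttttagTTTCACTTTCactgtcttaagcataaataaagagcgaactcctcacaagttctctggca
Cxcl10 upstream window, chr5:92348890-92349139, minus strand: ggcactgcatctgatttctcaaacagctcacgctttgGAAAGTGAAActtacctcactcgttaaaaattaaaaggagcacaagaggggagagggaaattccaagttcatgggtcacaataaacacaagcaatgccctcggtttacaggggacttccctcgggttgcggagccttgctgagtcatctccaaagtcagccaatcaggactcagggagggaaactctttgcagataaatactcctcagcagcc
In Gbp7, Gbp3 and Gbp2 the core began 53, 45 and 59 bases before the start, and in Gbp3 2 cores overlapped. In Cxcl10 the core was farther away, at 213 bases, and read on the other strand. A second RefSeq start of Gbp3 (window chr3:142560106-142560355) and the Ccl8 and Ccl3 windows did not contain these letters.

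On the lists that follow 1 to 3 genes changed in a direction, beside 3.05% called over all genes tested, and they are given as counts only. Id2, an inhibitor of basic helix-loop-helix factors, was the 1 of 28 macrophage transcription factor genes that changed (-0.65, adjusted p = 0.0261), from 416 to 556 CPM to 240 to 369 CPM. Of 17 clock genes 2 rose: Per3 (0.80, adjusted p = 0.0346) and Dbp (0.99, adjusted p = 0.0296), both known targets of CLOCK and BMAL1. Dbp was at 7.53, 9.59 and 10.8 CPM on day 4 and at 11.3, 22.7 and 17.6 CPM on day 7. The immediate early genes Jun (0.50) and Egr1 (0.74) and the stress gene Gadd45b (0.94) rose as well, 3 of 23 on that list beside the fall of Hmox1. Il1rn, the interleukin 1 receptor antagonist, fell by 1.64 (adjusted p = 0.0297) from 38.2 to 54.2 CPM to 9.22 to 23.8 CPM, and Cd74 rose by 2.08 (adjusted p = 0.0477) but only to 3.53 CPM at most. Gpr34, a lysophosphatidylserine receptor of microglia, rose by 1.11 (adjusted p = 0.0306), 1 of 7 microglial genes tested.

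The other genes named for their size were Pdzk1ip1 (2.14), Tmem176a (1.76) and Tmem176b (1.63) among those that rose, and the noncoding RNA Miat (-2.34), Runx1t1 (-1.12), the cell cycle gene Cks1b (-1.09), Ckap4 (-1.09), Chchd10 (-1.02) and Adnp (-2.44) among those that fell. With marked doublets left out Runx1t1 was at -0.06 (adjusted p = 0.969) and Miat at -1.91 (adjusted p = 0.129). Adnp then stood at 47.8 to 57.1 CPM on day 10 after 1.16 to 4.72 CPM on day 7, and in fibroblasts it changed by -2.48 on the log2 scale from day 4 to day 7 and by 4.49 from day 7 to day 10. Miat changed by -1.65 in fibroblasts from day 4 to day 7. Over all 385 genes, 45 moved by more than 1 on the log2 scale in the same direction in fibroblasts. Many of the 385 changed by less than 1 in the members themselves. Smaller shared changes were not counted, so the 45 can understate how many moved alike in fibroblasts.

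Between days 7 and 10, 130 genes passed (1.03%), 114 higher (0.903%) and 16 lower (0.127%). The libraries of day 10 were counted on 32285 features and the others on 31053, and 108 of the 130 genes moved by more than 1 on the log2 scale in the same direction in fibroblasts. Rnasek, for example, went from 1.83 to 3.22 CPM to 390 to 460 CPM in members (log2 fold change 7.58) and by 6.66 in fibroblasts. Day and feature table cannot be told apart for such genes. Ccl8 was different, in that it rose in the members from 35.7, 243 and 142 CPM to 292, 530 and 457 CPM (1.86, SE 0.34, adjusted p = 0.0402) and stood 0.59 lower on the log2 scale in fibroblasts. Spic also rose, to 7.07, 8.25 and 20.3 CPM (1.01, adjusted p = 0.0122), and changed by 0.73 in fibroblasts, where it reached at most 0.0378 CPM. Ccl8 was 1 of 34 inflammatory and Spic 1 of 11 iron genes that passed. Trf, which is on no list, rose as well (0.76, adjusted p = 0.0219), and by 1.46 in fibroblasts.

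The genotypes differed in few genes. Between Per1-/- and WT members, 3 of 12628 genes passed over the 3 days (0.0238%), 2 higher (0.0158%) and 1 lower (0.00792%), while 1625 had an unadjusted p under 0.05 and DESeq2's Wald test called 162. Rtn4rl1, a relative of the Nogo receptor (chromosome 11, 75193783 to 75267769), was at 24.9, 26.8 and 37.6 CPM in WT members on days 4, 7 and 10, at 7.19, 6.27 and 9.70 CPM in Per1-/- and at 17.8, 22.8 and 27.9 CPM in Per2-/-. The Per1-/- values lay below the 6 others (log2 fold change against WT -1.86, SE 0.13, adjusted p = 0.00185, and against Per2-/- -1.58, adjusted p = 0.00603). For this gene, loss of Per1 and DNA inherited beside the mutant allele cannot be told apart. The call against WT held in 15 of 17 alternatives, that of Fcgr2b in 12 and that of Uty in 11. In the same comparison 0 of 15 neuronal markers had a positive fold change and 0 passed (median -0.92), and their part in this value was not tested. Fcgr2b was higher in Per1-/- than in WT on each day, with 301 and 108 CPM on day 10 (1.49, SE 0.17, adjusted p = 0.0466). The third gene was the Y-linked Uty (2.33, adjusted p = 0.0466), at 33.5 and 36.2 CPM in the 2 Per1-/- libraries without Xist and at 11.1 CPM in the third. The count was 0 without day 10 or without WT day 10, 1 without Per1-/- day 7 or WT day 7, 17 without WT day 4, 23 without Per2-/- day 4 and 54 without Per1-/- day 4.

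Between Per2-/- and WT members 7 genes passed (0.0554%), 5 higher (0.0396%) and 2 lower (0.0158%), with 1797 at an unadjusted p under 0.05. The higher ones were Pltp (0.68, adjusted p = 0.0478), Trf (1.07), Spic (1.53), the crystallin gene Cryba4 (2.05) and Gm13710 (1.32), and the lower ones Rarres1 (-1.80) and Col4a5 (-1.45), a basement membrane collagen. All 7 had the same adjusted p, and each lost its call in 13 or 14 of 17 alternatives. With marked doublets left out Rarres1 was at -1.16 (adjusted p = 0.181). Pltp was at 201, 377 and 394 CPM in Per2-/- and at 123, 248 and 276 CPM in WT on days 4, 7 and 10, and Spic at 1.86, 9.21 and 20.3 against 0.470, 3.68 and 7.07 CPM. Pltp, Trf and Spic were also among the genes that rose from day 4 to day 7. The 7 calls lay close to the threshold: with DESeq2 size factors in edgeR the count was 0, as it was without day 10 and without each library but 2, which gave 344 without Per2-/- day 4 and 2 without Per1-/- day 10.

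Between Per1-/- and Per2-/- members 11 genes passed (0.0871%), 9 lower (0.0713%) and 2 higher (0.0158%) in Per1-/-, with 1877 at an unadjusted p under 0.05. Mgll, monoacylglycerol lipase, was at 5.46, 7.51 and 9.74 CPM in Per1-/- and at 22.6, 26.6 and 69.9 CPM in Per2-/- (log2 fold change -2.29, SE 0.26, adjusted p = 0.0437), with WT between them at 13.6, 20.6 and 19.0 CPM. Kynu was at 10.8, 11.6 and 14.0 against 19.3, 43.0 and 63.8 CPM (-1.77, adjusted p = 0.0437). Stab2 (-1.27), Nod1, a sensor of bacterial peptidoglycan (-1.20), Gng3 (-2.60), Tspan33 (-1.71), Plekhg5 (-1.67), Tspan7 (-1.25) and Rtn4rl1 were the other lower genes. Cxcl2, a neutrophil chemoattractant, was higher, at 7.46, 12.6 and 3.06 CPM in Per1-/- and at 1.11, 0.738 and 0.827 CPM in Per2-/- (3.07, adjusted p = 0.0459, with 2.17 to 3.87 over the alternatives and the call lost in 11 of 17), as was Tmem171 (1.77). Gng3 is also a neuronal gene, and 0 of 15 neuronal markers tested had a positive fold change in this comparison (median -1.39), whose part in its value was not tested. The count of calls was 0 without day 10 or without Per1-/- day 7, between 1 and 4 without Per1-/- day 10, Per2-/- day 7, Per2-/- day 10, WT day 4 or WT day 10, 17 without WT day 7, 248 without Per1-/- day 4 and 437 without Per2-/- day 4.

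In the lists few or no genes passed between genotypes. Of 34 inflammatory genes 0 passed between Per1-/- and WT, 27 had a positive fold change and the median was 0.33, beside 0.00095 over all genes. The summed level of the list on days 4, 7 and 10 was 1248, 1274 and 1681 CPM in WT. It was 1252, 2107 and 1809 CPM in Per1-/- and 1404, 1366 and 1611 CPM in Per2-/-. Per1-/- and WT were thus close on day 4 and farthest apart on day 7, with 1 library each. Tnf was at 28.7, 32.2 and 24.4 CPM in WT and at 40.4, 29.98 and 17.2 CPM in Per1-/- (-0.02, SE 0.32). Of 37 interferon genes 0 passed between Per2-/- and WT, yet 36 had a positive fold change with a median of 0.74, beside 0.0056 over all genes. Ifit3, an interferon-induced antiviral gene, was at 41.9, 41.3 and 129 CPM in WT, at 42.9, 72.3 and 91.7 CPM in Per1-/- and at 15.2, 296 and 248 CPM in Per2-/-. Per2-/- was the lowest genotype on day 4 and the highest on days 7 and 10, and the adjusted p was 0.351. Isg15 and Irf7 had the same order, Irf7 at 14.5, 96.4 and 90.6 CPM in Per2-/- and at 31.1, 22.8 and 38.9 CPM in WT. This change of order was not tested.

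Some other genes differed widely between libraries without a call. Apoe, the apolipoprotein of macrophage lipid export, was at 4299, 4061 and 3731 CPM in WT, at 7058, 3081 and 722 CPM in Per1-/- and at 10075, 16018 and 12617 CPM in Per2-/- (Per1-/- against Per2-/- -2.14, SE 0.57, adjusted p = 0.141). WT barely moved over the days while Per1-/- was lower on each later day. The Per1-/- members of day 4 differed from those of days 7 and 10 in Xist and Ddx3y, as given above. Cx3cr1, the fractalkine receptor, was at 36.7 CPM in Per1-/- day 10 and between 134 and 311 CPM in the 8 other libraries. Marco, a scavenger receptor, was at 45.6 CPM in Per1-/- day 7 and at most 12.6 CPM elsewhere, and Clec4e, a receptor for mycobacterial glycolipid, at 22.1 CPM in that library and at most 3.53 CPM elsewhere.

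**Figure D5:**
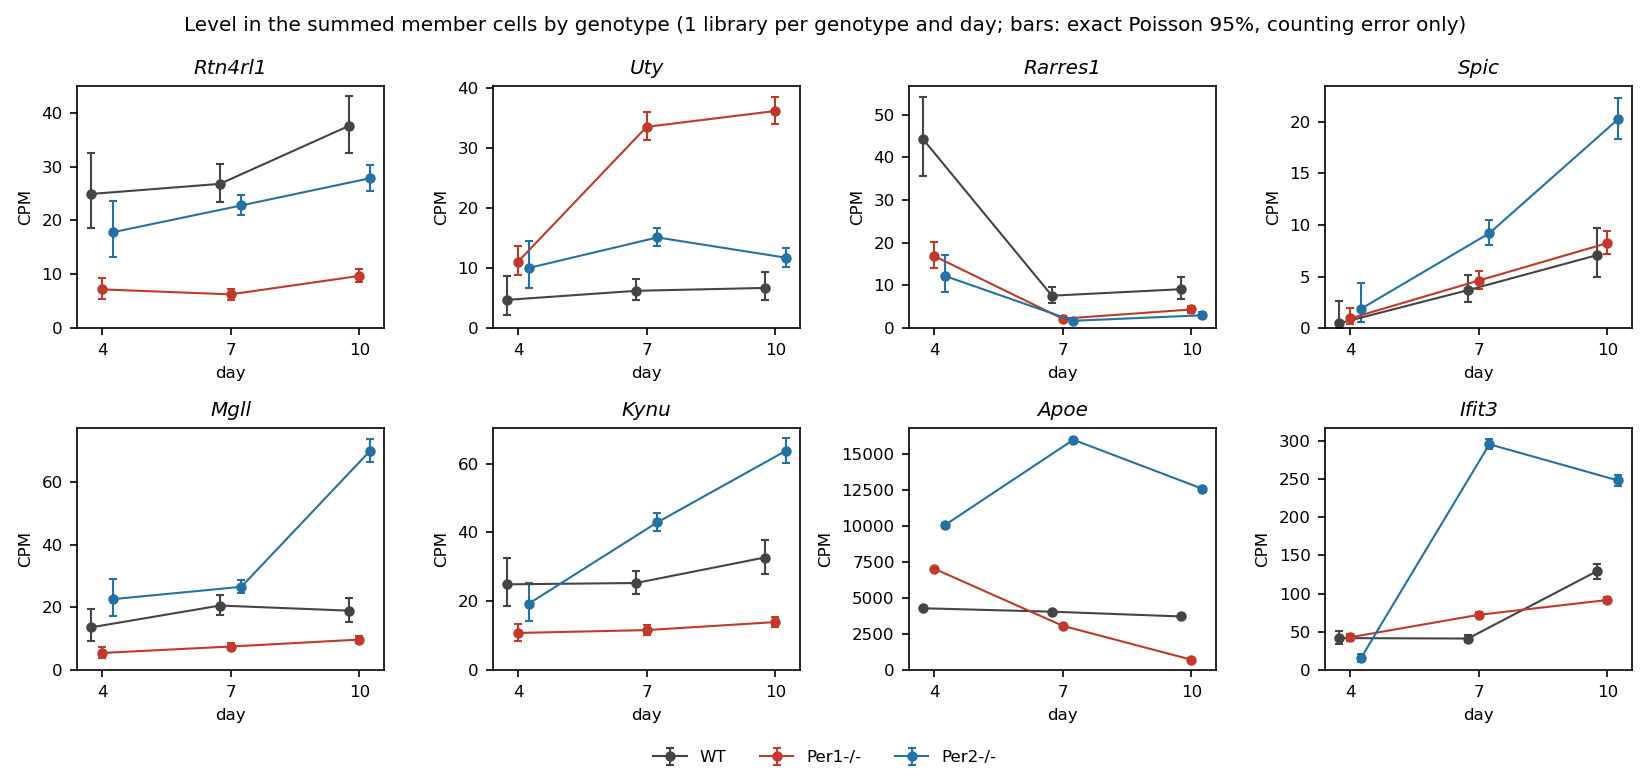
CPM of 8 genes in the summed members against day, 1 line per genotype, with exact Poisson 95% intervals that cover counting error only. Rtn4rl1 and Kynu were lowest in Per1-/- on each day, Apoe was highest in Per2-/- on each day, and Ifit3 was lowest in Per2-/- on day 4 and highest on days 7 and 10.

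Whether genotype or day acted differently in Mrc1-high and Mrc1-low cells was tested with an interaction term in edgeR over both classes, with the library as a block. Of 9269 genes, 1 passed for Per1-/- against WT (0.0108%) and 3 for day 7 against day 4 (0.0324%), with 415 and 521 at an unadjusted p under 0.05. The genes were Miat in both, and Runx1t1 and Nrxn3 for the days, and with marked doublets left out 0 genes passed in either test (429 and 315 at an unadjusted p under 0.05), where these 3 genes fell below the filter on low counts and were not tested. Fcgr2b, Ccl8, Pltp, Trf and Gbp7 were not among them. The Mrc1-low sums held only 244430 to 1402804 UMI, which limits what this test could detect.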

How the data were processed

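Single-cell libraries were made from BAM-transduced MEFs with the 10x Chromium 3' kit (v3.1), and the authors deposited a matrix of UMI counts per gene and barcode for each of 9 libraries. Cell Ranger 7.1 and the build mm10 are named in the submitters' processing notes. Days 4 and 7 were deposited with 31053 features and day 10 with 32285, of which 30406 identifiers shared by all were used. The counts are not normalised. Counts of the members were summed per library and tested with edgeR 4.0.16 (filterByExpr, TMM, glmQLFit, genotype + day) and p-values were adjusted by Benjamini-Hochberg over the genes tested. The 12 genes of the rule were left out. The SE of a log2 fold change was derived as its size over the square root of the F statistic, since the test itself gives no SE. In simulated data the script recovered log2 changes of at least 1 in size that had been put into genes above 20 CPM. The share recovered is not given here. Smaller changes and genes of lower level were not simulated, so this does not measure the sensitivity of the tests. CPM were scaled to the UMI of each sum. Ratios between classes used a pseudocount of 0.5 UMI. Doublets were the highest Scrublet scores (scanpy 1.11.5), marked at 0.8% of barcodes per 1000 barcodes, and were removed only as an alternative. Fibroblasts were cells with the 3 collagen genes at 60 per 10,000 or more and the 6 macrophage genes under 5. Promoter windows and sequences came from RefSeq. The members, gene lists and tests were chosen with earlier results of these data known. Genes were named as the 6 markers, Per1 and Per2; per comparison, all called genes where 12 or fewer were called, else the 8 largest called changes in each direction with a mean of at least 20 CPM; called members of a list, or where none was called its most abundant members; the 12 highest and 12 lowest class ratios among genes with 1 sign in 9 of 9 libraries and a mean of at least 20 CPM in the higher class; and the 8 genes most like Mrc1. Other genes, such as Marco, Clec4e, Cx3cr1, Ifit3, Isg15, Irf7, Tnf and Xist, were picked after their values were seen. Some named genes are not reported here. Alternatives were DESeq2 1.42.0, its size factors, no filter, doublets left out, another Mrc1 threshold, each library left out and day 10 left out.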

Additional observations from a re-analysis of the deposited data

Results flagged for a closer look

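3 genes were picked out because an effect differed between Mrc1-high and Mrc1-low non-cycling macrophages in the interaction test, with 4 results in all. Miat, a long noncoding RNA, had a log2 difference of -4.08 between the classes for day 7 against day 4 (adjusted p = 2.547e-05 by edgeR) and of -2.95 for Per1-/- against WT (adjusted p = 0.0231). It was at 41.9, 30.4 and 67.2 CPM on day 4 and at 17.8, 3.36 and 10.1 CPM on day 7 in the Mrc1-high sums. In the Mrc1-low sums it was at 9.59, 27.7 and 43.8 CPM on day 4 and at 39.4, 82.0 and 91.2 CPM on day 7, from 4 to 115 UMI a library. Runx1t1, a transcriptional co-repressor gene, had a difference of -2.86 for day 7 against day 4 (adjusted p = 0.00226), with 48.0, 25.4 and 42.3 and then 25.4, 11.5 and 15.5 CPM in Mrc1-high sums and 26.4, 14.5 and 9.39 and then 66.2, 76.3 and 23.9 CPM in Mrc1-low sums. Nrxn3, a neuronal adhesion gene, had a fitted difference of -12.2 (adjusted p = 0.0424), but all 3 Mrc1-low sums of day 4 held 0 UMI of it and those of day 7 12, 18 and 15 UMI, so the size depends on the prior count. With Mrc1 of at least 4 per 10,000 as the threshold the differences for the days were -0.83 for Miat, -0.30 for Runx1t1 and -0.63 for Nrxn3, and with macrophage genes of at least 60 and collagens under 20 per 10,000 that of Miat for Per1-/- against WT was -0.56, none of them past the threshold. With doublets left out 0 genes passed in either interaction test, the 3 genes fell below the filter on low counts, and 15.2% of Mrc1-low cells were marked as doublets.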

How the results depend on the processing

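The fold changes of the named genes that were called, the slope of the Mrc1-high share and the Per1-/- difference in share kept their direction in the alternatives run, while the order of WT and Per2-/- in that share on day 10 turned in 2 of them, as given above. For Per1-/- against WT the 3 calls became 162 with DESeq2's Wald test, 251 without a filter on low counts, 6 with doublets left out, 14 with Mrc1 of at least 4 per 10,000 and 0 without day 10, and 0 to 54 with 1 library left out. For Per2-/- against WT the 7 calls became 0 with DESeq2 size factors, 164 with the Wald test, 267 without the filter, 18 with doublets left out, 0 at the higher Mrc1 threshold and 0 without day 10, and 0 to 344 with 1 library left out. For Per1-/- against Per2-/- the 11 calls became 246 with the Wald test, 496 without the filter and 0 without day 10, and 0 to 437 with 1 library left out. For day 7 against day 4 the 385 calls became 685 with the Wald test, 939 without the filter and 73 without day 10, and 8 to 372 with 1 library left out. For day 10 against day 7 the 130 calls became 96 to 149 with 1 library left out, and the comparison could not be made without day 10. The interaction for Per1-/- against WT gave 1 call, and 2 with the Wald test, 54 without the filter, 0 with doublets left out, 0 at the higher Mrc1 threshold, 2 without day 10 and 0 to 8 with 1 library left out. That for day 7 against day 4 gave 3 calls, and 7, 113, 0, 1, 9 and 1 to 13 in the same order. With barcodes shared between libraries left out, chosen after seeing the data, the counts were 6, 0 and 1 for the comparisons of genotypes in the order above. With macrophage genes of at least 60 and collagens under 20 per 10,000, also chosen after seeing the data, they were 8, 0 and 20, and 0 for the interaction of day 7 against day 4. The slope of the Mrc1-high share was 1.41 points per day at the higher Mrc1 threshold and 0.934 to 2.44 with 1 library left out, and the Per1-/- difference was 9.25 points at the higher Mrc1 threshold (exact permutation p = 0.111), 3.27 to 5.70 under the other settings for cells and 2.74 to 5.72 with 1 library left out. The causes of these changes were not tested. Where 1 library was left out, the remaining libraries shared 1 estimate of the spread. The interaction test had the library as a block, and no paired analysis was possible beyond that and the terms for genotype and day because each genotype and day had 1 library. The sums of day 4 held 2125562 to 7506448 UMI and that of WT day 10 5377961 UMI, against 8692197 or more in the rest, and the part of depth in the counts of calls was not tested.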
